A study of Mus musculus with 34 samples.

Results

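The clustered replication-dependent histone genes were taken as the protein-coding genes of the GENCODE M21 annotation whose symbols begin with Hist1h, Hist2h, Hist3h or Hist4h. The rule found 67 genes among 21938 protein-coding genes on 21 chromosomes. They encode 6 linker histones (H1) and the core histones of the nucleosome, 18 of class H2A, 18 of class H2B, 12 of class H3 and 13 of class H4. The readout was trimethylation of histone H3 at lysine 4 (H3K4me3), mapped with CUT&RUN, in which an antibody directs a protein A-micrococcal nuclease fusion to the mark and the released DNA is sequenced. Villus cells came from the small intestine of wild-type C57BL/6J mice and of ApcMin/+ mice on the same background, with 2 replicate libraries of each genotype. The methods count 2 mice of each genotype, as many as there are libraries, but the labels do not tie a library to a mouse, so the p-values below measure the spread between these libraries. ApcMin/+ mice carry 1 mutant and 1 intact allele of Apc, a negative regulator of Wnt signalling, in every cell, and develop many intestinal neoplasms. The tissue appeared normal and was taken at 5 weeks of age according to the labels and at 6 weeks according to the methods. The cells were scraped from whole villi and not sorted, so that fewer cells of a type and less of the mark per cell cannot be told apart.

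Replication-dependent histone genes supply the histones that package newly copied DNA, and most are transcribed during S phase of the cell cycle. Their messages are short, mostly unspliced and not polyadenylated. A conserved stem-loop soon after the stop codon, bound by the protein Slbp, takes the place of the poly(A) tail. In the small intestine, dividing cells reside in the crypts, whereas the villus is lined mainly by cells that have left the cell cycle. H3K4me3 marks the 5′ ends of genes that are active or poised, and is usually highest over the first nucleosomes downstream of the start site.

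The 67 genes lay in 6 clusters when neighbours within 200 kb were joined (mouse build GRCm38/mm10). The first Hist1 cluster (A), with 18 genes, spanned chr13:21714763-21838530. The second (B), with 5 genes, spanned chr13:22034164-22044676, and the third (C), with 31 genes, spanned chr13:23530050-23935851. The Hist2 cluster held 10 genes at chr3:96218865-96271132. The Hist3 cluster held Hist3h2a and Hist3h2ba at chr11:58947920-58957830, and Hist4h4 stood alone at chr6:136800553-136805415. Of the 67 genes, 62 were annotated with a single exon. A divergent arrangement, in which both genes start from a short shared stretch and run apart, joined 24 genes into 12 pairs of 1 H2A and 1 H2B gene. The 5′ ends of these pairs were 176 to 306 bp apart, with a median of 259.5 bp. Hist1h2bh and Hist1h3f formed a further divergent pair, 660 bp apart.

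The shared stretches between divergent genes are shown for the pair with the highest signal outside the Hist1 clusters, the pair with the highest signal within them, and a pair at which no signal was recorded. Each stretch runs 5′ to 3′ on the plus strand and lies between the annotated 5′ ends, outside both genes. Capitals mark matches, on either strand, to the CCAAT box, to the octamer ATTTGCAT, to the TATAAA box and to the E2F-type motifs TTTGGCGC and TTTCGCGC, whose counts over all histone promoters follow.
Hist2h2ac to Hist2h2be, chr3:96220881-96221118: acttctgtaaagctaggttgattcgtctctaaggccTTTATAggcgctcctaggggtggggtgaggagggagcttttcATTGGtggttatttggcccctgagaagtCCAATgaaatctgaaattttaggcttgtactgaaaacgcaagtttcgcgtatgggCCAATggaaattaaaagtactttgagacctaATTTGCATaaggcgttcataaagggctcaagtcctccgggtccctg
Hist1h2ac to Hist1h2bc, chr13:23683949-23684198: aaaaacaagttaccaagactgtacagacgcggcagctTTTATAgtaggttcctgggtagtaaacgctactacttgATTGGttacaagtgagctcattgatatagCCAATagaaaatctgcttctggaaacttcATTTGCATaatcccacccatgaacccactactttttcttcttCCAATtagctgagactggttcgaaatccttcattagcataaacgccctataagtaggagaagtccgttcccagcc
Hist1h2ap to Hist1h2br, chr13:21833508-21833742: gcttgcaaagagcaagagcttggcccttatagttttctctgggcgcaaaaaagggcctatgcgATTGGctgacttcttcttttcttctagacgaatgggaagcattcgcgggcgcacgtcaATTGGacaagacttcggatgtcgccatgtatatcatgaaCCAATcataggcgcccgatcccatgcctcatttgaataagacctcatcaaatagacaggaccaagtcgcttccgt
All 3 stretches held CCAAT 3 times. The first and second each held 1 TATAAA and 1 octamer, which were not found between Hist1h2ap and Hist1h2br.

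For linker histone genes, which have no divergent partner, the 250 bases before the first transcribed base are shown, 5′ to 3′ on the strand of the gene. Hist1h1c had the highest signal of the linker histones, and Hist1h1t, the testis-specific linker histone, was among the lowest.
Hist1h1c, chr13:23738558-23738807, plus strand: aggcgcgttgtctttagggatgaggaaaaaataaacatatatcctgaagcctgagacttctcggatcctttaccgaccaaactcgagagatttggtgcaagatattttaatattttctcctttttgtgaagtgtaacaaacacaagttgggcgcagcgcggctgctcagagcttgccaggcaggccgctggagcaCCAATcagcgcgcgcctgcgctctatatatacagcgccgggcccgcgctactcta
Hist1h1t, chr13:23695564-23695813, plus strand: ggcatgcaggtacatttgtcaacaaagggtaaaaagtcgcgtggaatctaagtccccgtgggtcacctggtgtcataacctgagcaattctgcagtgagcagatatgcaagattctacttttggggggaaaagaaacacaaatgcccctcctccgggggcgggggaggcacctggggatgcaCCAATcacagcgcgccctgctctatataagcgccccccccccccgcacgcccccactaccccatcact
Each of these 2 stretches held CCAAT once and none of the other motifs.

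Motifs were counted over 300-base promoters (250 bases before to 50 after the start) that RefSeq gives for the GRCm38.p6 assembly, of which 61 of the 67 genes had one. A CCAAT box, the core of the site recognised by the factor NF-Y, occurred on either strand in 52 of 61 histone promoters (85.2%) and in 39.0% of the 17492 protein-coding promoters. It was found in every promoter of classes H1, H2A, H2B and H3 in that table, but in 3 of 12 H4 promoters. TATAAA occurred in 57.4% of the histone promoters and in 13.3% of all. The octamer ATTTGCAT, which Oct-1 (Pou2f1) binds, was found in 13 histone promoters (21.3%), 7 of class H2A and 6 of class H2B, against 1.71% of all protein-coding promoters. The E2F-type motifs TTTGGCGC or TTTCGCGC were found in 9 (14.8%), 5 of class H2A and 4 of class H2B, against 1.07% of all. The promoters of a divergent H2A and H2B pair overlap, so a motif between the genes can count at both. The counts are of genes, not of separate stretches. Except for Hist1h2af, the genes with an E2F-type motif form such pairs: Hist1h2an and Hist1h2bp, Hist1h2ah and Hist1h2bk, Hist1h2ag and Hist1h2bj, and Hist1h2ad and Hist1h2bf. The ratio of observed to expected CpG had a median of 0.746 over the histone promoters and 0.576 over all. A match to these letters is a description of the window and does not show that a factor binds there.

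The 3′ stem-loop was found after 63 of the 67 coding sequences, 21 to 58 bases after the stop codon (median 31). It is 16 bases long, with 2 pairing arms of 6 bases (capitals) around a loop of 4, and 62 of the 63 paired without a mismatch. It is shown here, as DNA, because it separates the H4 genes from the other classes.
Hist1h1c (chr13:23739512-23739527) and 37 others of classes H1, H2A, H2B and H3: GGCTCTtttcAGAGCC
Hist2h2ab (chr3:96220333-96220348) and 8 others of classes H1, H2A, H2B and H3: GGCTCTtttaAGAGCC
Hist1h4h (chr13:23531458-23531473) and 7 other H4 genes: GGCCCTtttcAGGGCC
Hist2h4 (chr3:96262939-96262954) and Hist1h4i: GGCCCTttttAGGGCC
Hist1h4j (chr13:21735437-21735452) and Hist1h4b: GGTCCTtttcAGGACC
The 5′ arm was the same, as in Hist1h1c, in all 50 stem-loops of classes H1, H2A, H2B and H3. The 13 H4 genes had the 5′ arm of Hist1h4h or that of Hist1h4j, and these occurred in none of the 50. No stem-loop was found within 150 bases after the annotated stop codon of Hist1h2bp, Hist1h2bq, Hist1h2br or Hist2h2be, all of class H2B. At Hist1h2bp, Hist1h2bq and Hist1h2br the annotated coding span was 1546, 2069 and 2069 bp long, against 378 bp at Hist2h2be. The search began at its far end, so that a stem-loop nearer the start codon of these genes would have been missed.

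Signal here is the read coverage per base that the authors scaled to 10000000 tags per library, averaged over 1000 bp on each side of the annotated 5′ end. The libraries held 1430000 and 4790000 tags (wild-type replicates 1 and 2) and 3700000 and 5470000 tags (ApcMin/+ replicates 1 and 2). ApcMin/+ replicate 1 stood apart from the rest. At the 9931 promoters whose signal averaged 2 or more, its median was 13.2, against 4.53, 3.06 and 4.18 in wild-type replicates 1 and 2 and ApcMin/+ replicate 2, while its signal more than 5000 bp from any 5′ end was the lowest (0.224, against 0.312 to 0.333). That average includes ApcMin/+ replicate 1, so a high value there helps a promoter to pass. Over all protein-coding promoters the mean of that library was 6.85, against 2.59, 1.76 and 2.35 in the same order. Medians and ratios between genotypes are therefore also given without that library. A histone window held a median of 4.58 (wild-type replicate 1), 15.2 (wild-type replicate 2), 63.4 (ApcMin/+ replicate 1) and 21.6 tags (ApcMin/+ replicate 2), so that single values from wild-type replicate 1 rest on few reads. A count of 3 tags corresponds to a signal of 1.05, 0.314, 0.405 and 0.274 in the same order. These limits cover counting error only.

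H3K4me3 was detected at most of the histone genes. Their signal, as the mean of the 4 libraries, ranged from 0 to 9.86 with a median of 3.30. The percentile of each gene among all protein-coding promoters, averaged over the 4 libraries, had a median of 58.3. A mean of at least 2 was reached by 50 of 67 genes (74.6%) and by 45.3% of all protein-coding genes. As many histone genes lie within 1000 bp of another, the 67 windows merged into 38. The mean over these 38 windows was 1.79 and 1.77 in wild-type mice and 8.50 and 2.20 in ApcMin/+ mice.

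**Figure D1:**
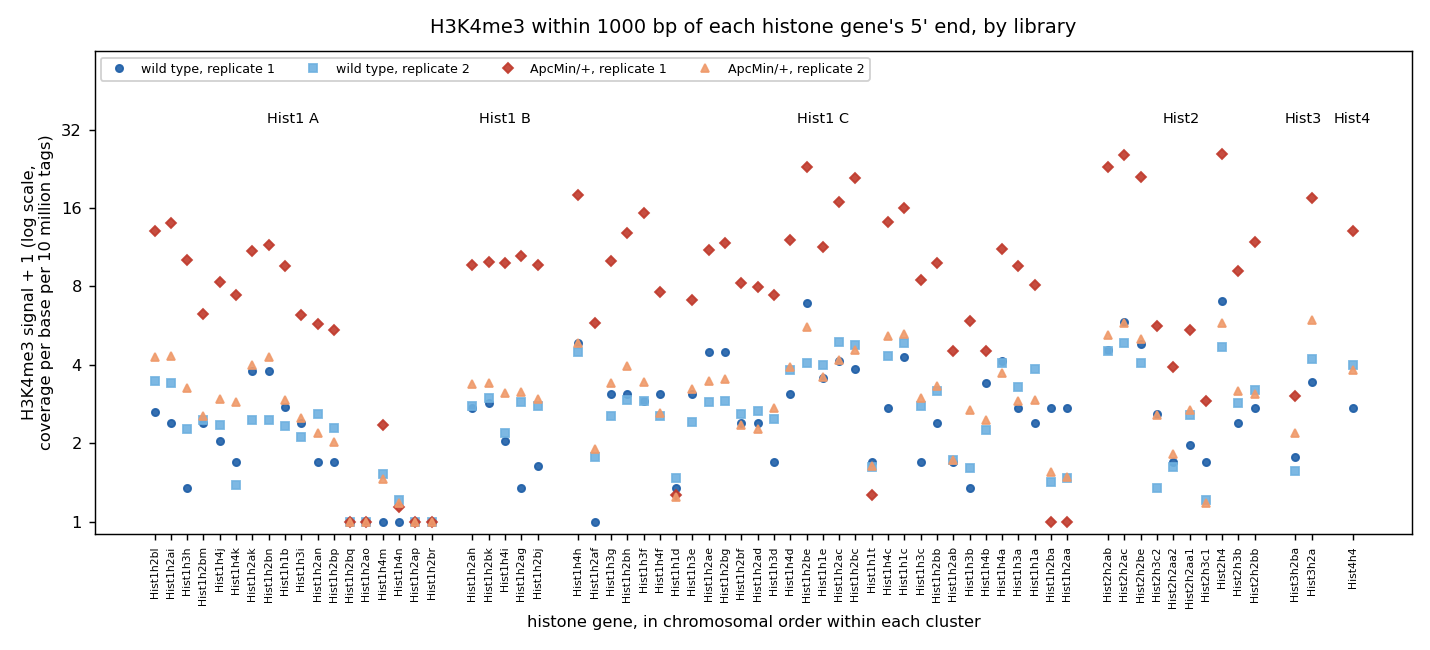
Mean H3K4me3 signal (coverage per base, scaled to 10000000 tags) plus 1, on a log scale, of each of the 67 histone genes in the 4 libraries, in chromosomal order within the clusters (Hist1 A, B and C are the first, the second and the third Hist1 cluster). The points of ApcMin/+ replicate 1 reach a signal of 24.9 at Hist2h4 and lie above the other 3 libraries at all 50 genes with a mean of at least 2, whereas 4 genes of the first Hist1 cluster are at 0 in every library.

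The 2 highest signals were in the Hist2 cluster. Hist2h4 (chr3:96261682-96263311, class H4) measured 6.05 and 3.70 in wild-type mice and 24.9 and 4.81 in ApcMin/+ mice. Hist2h2ac (chr3:96220361-96220880, class H2A) measured 4.82 and 3.87 in wild-type mice and 24.6 and 4.78 in ApcMin/+ mice. The groups overlapped at both genes, as ApcMin/+ replicate 2 lay below wild-type replicate 1. Hist2h2be, the divergent partner of Hist2h2ac, measured 3.81, 3.06, 20.1 and 4.03 in wild-type replicates 1 and 2 and ApcMin/+ replicates 1 and 2. Hist2h2ab, an H2A gene of the same cluster, measured 3.58, 3.52, 22.0 and 4.22 in the same order. Its 5′ end lies 156 bp from that of Bola1, a gene that is no histone gene, so that the signal of the pair cannot be told apart. Both ApcMin/+ values lay above both wild-type values at Hist2h2be and Hist2h2ab, by little in replicate 2.

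In the third Hist1 cluster, the H2A and H2B genes with the highest signal at their own coding sequence were the divergent pair Hist1h2ac and Hist1h2bc, whose shared stretch is printed above. Hist1h2bc measured 2.84 and 3.78 in wild-type mice and 19.9 and 3.56 in ApcMin/+ mice. Hist1h2ac measured 3.14 and 3.88 in wild-type mice and 15.9 and 3.19 in ApcMin/+ mice. ApcMin/+ replicate 2 lay between the wild-type values at both. Hist1h4h, an H4 gene at one end of the cluster, measured 3.84 and 3.47 in wild-type mice and 17.0 and 3.84 in ApcMin/+ mice. Hist1h4c, another H4 gene, measured 1.74 and 3.34 in wild-type mice and 13.1 and 4.17 in ApcMin/+ mice, with both ApcMin/+ values above both wild-type values.

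Among the linker histones, the somatic genes Hist1h1c, Hist1h1e, Hist1h1b and Hist1h1a carried signal. Hist1h1c measured 3.30 and 3.87 in wild-type mice and 15.0 and 4.26 in ApcMin/+ mice, without overlap. Hist1h1e measured 2.55, 3.01, 10.4 and 2.60, Hist1h1b 1.75, 1.33, 8.56 and 1.94, and Hist1h1a 1.39, 2.86, 7.10 and 1.94 in wild-type replicates 1 and 2 and ApcMin/+ replicates 1 and 2. The groups overlapped at Hist1h1e and Hist1h1a. The testis-specific Hist1h1t measured 0.697, 0.627, 0.268 and 0.639 in the same order, below the other libraries in ApcMin/+ replicate 1. Hist1h1d measured 0.349, 0.469, 0.270 and 0.248 at its annotated 5′ end, but its start codon lay 1828 bp downstream, and the window centred there measured 0.697, 2.18, 11.2 and 2.01.

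The place of the annotated 5′ end mattered for 2 further genes. The most distal 5′ end of Hist1h2be lay 35168 bp from its start codon, inside the gene span of Hist1h1e, and its window there measured 5.93, 3.06, 22.1 and 4.60, against 2.36, 3.19, 13.6 and 2.09 at its start codon. Hist3h2a, which measured 2.44, 3.22, 16.5 and 4.95, shares its annotated 5′ end, and thus its window, with Trim17, a gene on the same strand. Its neighbour Hist3h2ba, of class H2B, measured 0.768, 0.567, 2.03 and 1.18. Hist4h4, an H4 gene, measured 1.74, 3.01, 12.0 and 2.83.

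H3 genes had a lower highest value than the other core classes. Hist1h3f measured 1.92 and 1.91 in wild-type mice and 14.3 and 2.45 in ApcMin/+ mice, and Hist1h3g 2.09 and 1.54 in wild-type mice and 9.01 and 2.40 in ApcMin/+ mice, both without overlap. At the low end, Hist1h3b measured 0.349, 0.604, 4.89 and 1.69 in wild-type replicates 1 and 2 and ApcMin/+ replicates 1 and 2. The near-identical genes Hist2h3c1 and Hist2h3c2, with over 80% repeated words, measured 0.698, 0.209, 1.91 and 0.183 (Hist2h3c1) and 1.60, 0.353, 4.63 and 1.56 (Hist2h3c2). Reads of such copies cannot be told apart where their sequence is the same, and their values are uncertain. Their neighbour Hist2h3b measured 1.40, 1.86, 8.15 and 2.18.

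The other Hist2 genes were lower than Hist2h4 and Hist2h2ac. Hist2h2aa1 and Hist2h2aa2, duplicated H2A genes with windows 58.5% and 59.5% repeated, measured 0.962, 1.57, 4.43 and 1.68 (Hist2h2aa1) and 0.697, 0.617, 2.93 and 0.822 (Hist2h2aa2). Hist2h2bb, of class H2B, measured 1.74, 2.22, 10.9 and 2.10.

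The divergent pair Hist1h2ba and Hist1h2aa, the testis-specific H2B and H2A genes, measured 1.74, 0.418, 0 and 0.548 (Hist1h2ba) and 1.74, 0.474, 0 and 0.489 (Hist1h2aa) in wild-type replicates 1 and 2 and ApcMin/+ replicates 1 and 2. ApcMin/+ replicate 1, the highest library at all 50 genes with a mean of at least 2, recorded nothing there, where 3 tags would have given 0.405. The value of wild-type replicate 1 corresponds to 4.99 tags.

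Hist1h2bq, Hist1h2ao, Hist1h2ap and Hist1h2br, a run of H2A and H2B genes in the first Hist1 cluster, were at 0 in all 4 libraries. Every 25-base word in their windows occurred more than once in the genome (100% repeated), and 620 of the 21938 protein-coding promoters were at 0 in all libraries. Hist1h4m, with 96.9% repeated words, measured 0, 0.522, 1.35 and 0.457, and Hist1h4n, with 97.4%, measured 0, 0.209, 0.135 and 0.183. Reads were trimmed to 21 or 25 bases and those with a mapping quality under 10 were removed. A low value in such windows therefore does not show that the mark was absent, and the part of repeated sequence in these values was not tested.

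**Figure D2:**
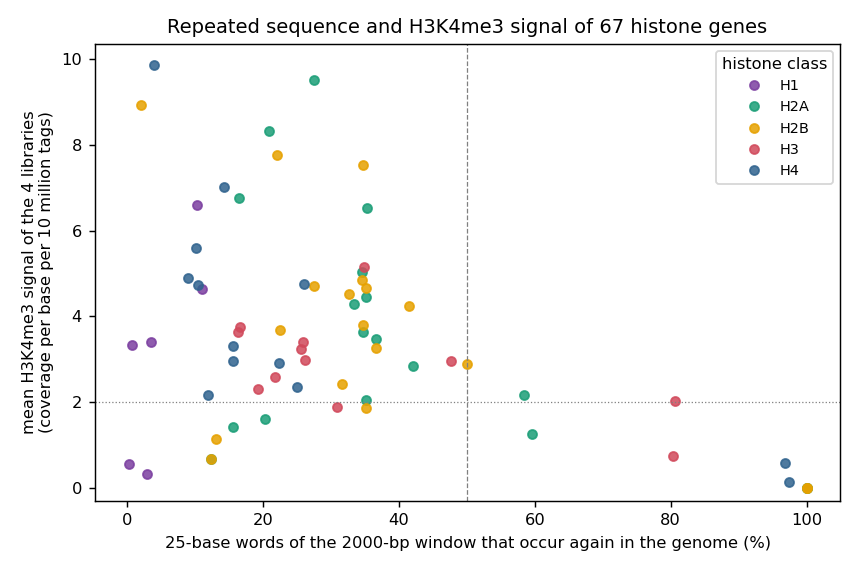
Mean signal of the 4 libraries (coverage per base, scaled to 10000000 tags) against the share of 25-base words of the window that occur more than once in the genome, for the 67 histone genes, coloured by class. The dashed line stands at 50% and the dotted line at a signal of 2. The 11 histone genes with over 50% repeated words sit at a median of 0.583, and the 4 genes at 100% are at 0.

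Repeated sequence was common over the histone genes. The median window held 26.2% repeated words, against 3.15% over all protein-coding promoters, and over 50% was repeated in 11 of 67 histone genes, against 7.71% of all. Of these 11, 3 reached a mean of 2, against 47 of the other 56. Within the 4 merged windows that were over 50% repeated, the bases that begin a unique word carried more signal than the repeated bases, 4.15 against 1.41 in ApcMin/+ replicate 1 and 1.56 against 0.249 in wild-type replicate 2. In the other 34 windows the repeated bases carried the higher mean (10.6 against 9.38 in ApcMin/+ replicate 1), but not in every window. The bases that begin a unique word were higher in 16 and 10 of the 34 in wild-type replicates 1 and 2. In ApcMin/+ replicates 1 and 2 they were higher in 19 and 14. The coding sequences of the family are close to each other. They were compared over the genomic span from the first to the last annotated coding base, with any intron included. Compared with the nearest gene of the same class and length, identity had a median of 98.5%, and 8 genes formed 4 pairs with an identical span. In the pair Hist1h2bq and Hist1h2br that span was 2069 bp.

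The mean profile of the histone genes was flatter across the 5′ end than that of all promoters with signal. Averaged over the 67 genes in 20-bp steps, it peaked 80 to 99 bp downstream of the 5′ end in 3 libraries (3.88, 3.59 and 15.6 in wild-type replicates 1 and 2 and ApcMin/+ replicate 1) and at 60 to 79 bp in ApcMin/+ replicate 2 (4.25). The 9931 promoters with signal peaked at 120 to 159 bp with maxima of 10.7, 6.78, 26.9 and 8.72. The mean over the 1000 bp downstream exceeded that over the 1000 bp upstream by 0.18 to 0.33 on the log2 scale at the histone genes and by 0.74 to 0.84 at these promoters.

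The profile is given by class as a description, with no test, over the genes with at most 50% repeated words (6 of class H1, 14 H2A, 15 H2B, 10 H3 and 11 H4). The H4 genes, none of which is divergent, had a single peak at 120 to 179 bp, of 10.7, 7.24, 26.2 and 8.83, and their downstream side exceeded the upstream side by 0.80 to 1.28 (log2). The H2B genes peaked in steps between -340 and -281 bp, upstream of their own 5′ end, which in most divergent pairs lies beyond the 5′ end of the H2A partner. Their downstream side was lower than the upstream side in all 4 libraries, with log2 ratios from -0.57 to -0.27. The H2A genes peaked between 0 and 99 bp. The H3 profile had no common peak, with maxima in steps that began at -40, -1560, -780 and 0 bp in wild-type replicates 1 and 2 and ApcMin/+ replicates 1 and 2, and its log2 ratios of downstream to upstream ran from -0.15 to 0.11. The H1 genes peaked in steps that began at 940, 280, 1140 and 1140 bp, with downstream sides higher by 2.09 to 2.97 (log2). These 6 genes include Hist1h1d, whose annotated 5′ end lies far before its start codon. Signal at its coding sequence (chr13:23554401-23556600) begins more than 1000 bp downstream of that end. The profile of Hist1h1e also runs over the distal 5′ end of Hist1h2be. The H1 peaks can therefore not be read as distances from the start site. The median signal was 3.72 over the 26 divergent genes and 2.99 over the 41 others, with ranges of 0 to 9.51 and 0.132 to 9.86. These are counts of genes: the 26 lie in 13 merged windows and the 41 in 31, so neighbours share reads. The divergent H2A and H2B genes alone had a median of 3.56.

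**Figure D3:**
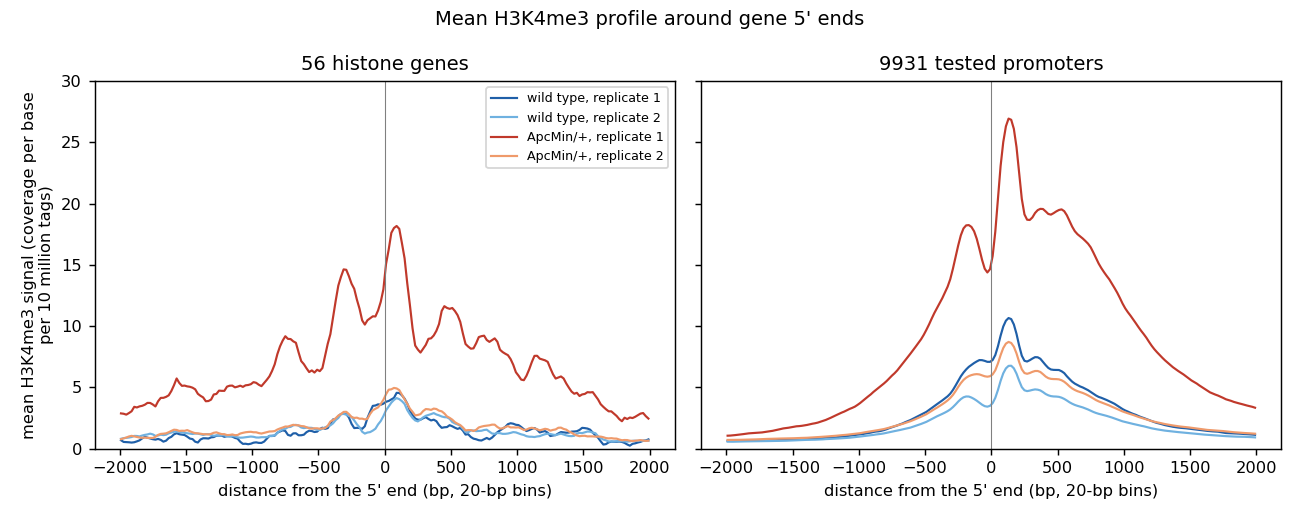
Mean signal (coverage per base, scaled to 10000000 tags) in 20-bp steps by distance from the annotated 5′ end (bp, negative upstream) in each library, for the 56 histone genes with at most 50% repeated words (left) and the 9931 promoters averaging 2 or more (right). In ApcMin/+ replicate 1 the histone genes reach 18.2 and the promoters 26.9, and the histone profile shows further peaks on both sides of the 5′ end.

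Enriched stretches, with at least 5 times the genome mean over 300 bp or more, were searched in the clusters and 8000 bp on either side. Of the 64 found, 53 touched a cluster and 11 lay wholly outside, and the 53 held the 5′ end or coding sequence of 54 of the 67 genes. The longest was 5800 bp and joined 5 genes of the third Hist1 cluster: Hist1h2ae, Hist1h2bg, Hist1h2bf, Hist1h2ad and Hist1h3d. Its mean was 1.80 and 1.74 in wild-type mice and 8.69 and 1.91 in ApcMin/+ mice. Of the 13 genes outside such stretches, 10 had windows over 50% repeated. The other 3 were Hist1h1t, Hist1h2aa and Hist3h2ba, with 0.15% to 13.1% repeated words.

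The 4 libraries were next compared by genotype. Over the 38 histone windows the wild-type libraries averaged 1.78 ± 0.01 (SD, n = 2) and the ApcMin/+ libraries 5.35 ± 4.45 (SD, n = 2), a log2 ratio of 1.59. It was 0.30 without ApcMin/+ replicate 1 and 2.25 without ApcMin/+ replicate 2. Over all protein-coding promoters, counted singly and many of them without signal, the ratio was 1.08, and 0.11 without ApcMin/+ replicate 1. Among single genes with a mean of at least 2, it was 1.65 over the 50 histone genes and 1.19 over the 9931 promoters. Without ApcMin/+ replicate 1 these were 0.29 and 0.096. With 2 libraries against 2, an exact permutation test cannot give a p below 0.333. Both ApcMin/+ values lay above both wild-type values in 24 of 38 histone windows (63.2%), against 25.5% of 20341 merged windows over all protein-coding genes, and below both in 0 of 38, against 7.55%. The groups overlapped in the other 14.

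Among windows with a mean of at least 2, both ApcMin/+ values lay above both wild-type values in 20 of 28 (71.4%), against 39.0% of 8658. That mean includes the ApcMin/+ libraries, so the filter itself favours this direction. Centring each library on its median promoter left 10 of 28 without overlap (9 above, 1 below), against 29% of the 8658 in either direction. It was 7 of 28 after quantile normalization, against 31.2%, and 9 of 18 with 2000 bp on each side, against 40.8% of 7567. ApcMin/+ replicate 1 was the highest library at 50 of 50 histone genes with a mean of at least 2, against 98.6% of the 9931 such promoters. A gene can pass this filter through that library alone, so the count follows in part from the filter. ApcMin/+ replicate 2 lay above both wild-type libraries at 31 of 50 (62%), against 38.6% of the 9931, and below both at 3. The counts out of 50 are of single genes, many of which share reads with a neighbour in an overlapping window. The wild-type libraries also differed in how the histone genes stood to other promoters. The mean of wild-type replicate 1 was 0.981 times that of replicate 2 over the 50 histone genes and 1.53 times over the 9931 promoters.

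In limma, fitted to log2(signal + 1) over the 9931 promoters, 0 of the 50 histone genes passed an adjusted p of 0.05, and 0 of the 9931 did (0%). Here and below, genes are counted singly, although many histone windows overlap (67 merged into 38). Neighbours therefore share reads, and their agreement is not that of independent genes. The smallest adjusted p was 0.683, for histone genes and for all promoters. At an unadjusted p under 0.05, 5 histone genes were higher in ApcMin/+ mice, against 1.32% of all promoters, and none was lower. Of these 5, Hist1h4i, Hist1h2ag and Hist1h2bj lie in the same merged window and are not separate observations. The median log2 difference over the 50 genes was 1.05, with a median standard error of 0.757, and 0.85 over all promoters. It was above 0 at 50 of 50 histone genes and at 99.2% of all promoters. The filter favours this direction, as its mean includes the high ApcMin/+ replicate 1. Without the filter the difference was above 0 at 59 of 67 histone genes and at 15488 of 21938 promoters. On this scale the changes of low genes are understated.

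When each library was centred on its median promoter, which lowered the difference of all promoters to about 0, the histone genes had a median of 0.28, and 42 of 50 were above 0, against 49.5% of all promoters. Without ApcMin/+ replicate 1 and without centring, the median was 0.21, with 39 of 50 above 0, against 0.13 and 66.5% of all promoters. With centring and without wild-type replicate 1, the library with the fewest tags, the median was -0.02 and 24 of 50 were above 0. The excess of the histone genes over other promoters after centring was therefore not seen without wild-type replicate 1, in which a histone window held a median of 4.58 tags. Without ApcMin/+ replicate 2, which leaves 1 ApcMin/+ library with an assumed spread, 49 of 50 histone genes and 6473 of 9931 promoters were called higher.

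**Figure D4:**
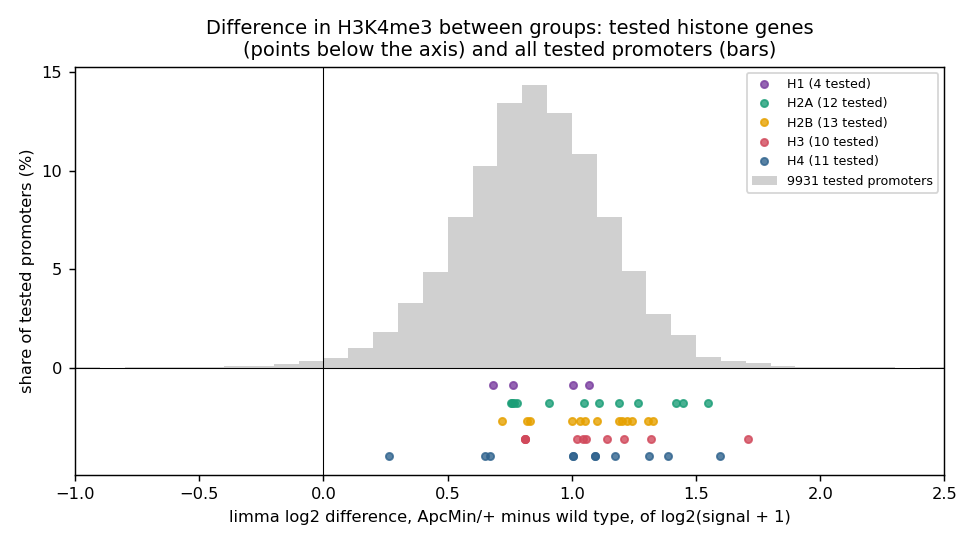
Share (%) of the 9931 tested promoters by log2 difference (ApcMin/+ minus wild-type, limma on log2(signal + 1), bars), with the 50 tested histone genes as points by class below the axis, where height has no scale. The histone genes run from 0.27 at Hist1h4b to 1.71 at Hist1h3h, to the right of 0, as do nearly all promoters.

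The 3 largest differences were at genes with low wild-type signal in the first and second Hist1 clusters. Genes this low in wild-type mice reach the mean of 2 only where ApcMin/+ values are high. Hist1h3h (chr13:21717659-21718069, class H3) measured 0.349 and 1.27 in wild-type mice and 9.06 and 2.26 in ApcMin/+ mice. The groups did not overlap, and the log2 difference was 1.71 ± 0.64 (SE, limma, adjusted p = 0.683). Hist1h4k (chr13:21750194-21750505, class H4) measured 0.697 and 0.381 in wild-type mice and 6.42 and 1.89 in ApcMin/+ mice. Its log2 difference was 1.60 ± 0.57 (SE, limma, adjusted p = 0.683). Hist1h2ag, an H2A gene of the second cluster, measured 0.349 and 1.88 in wild-type mice and 9.51 and 2.15 in ApcMin/+ mice. Its log2 difference was 1.55 ± 0.66. In wild-type replicate 1, the values of Hist1h3h and Hist1h2ag correspond to 0.998 tags, that is, a single fragment. Hist1h4i and Hist1h2bj, an H4 gene and the H2B partner of Hist1h2ag, were the other genes with an unadjusted p under 0.05, with log2 differences of 1.39 and 1.33. They lie in the same merged window as Hist1h2ag, so that these differences rest partly on the same reads. Leaving out ApcMin/+ replicate 1, the differences of Hist1h3h, Hist1h4k, Hist1h2ag, Hist1h4i and Hist1h2bj were 0.90, 0.91, 0.68, 0.56 and 0.47. None of the 5 genes passed the adjusted test.

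The 3 smallest differences were at H4 genes of the third Hist1 cluster. Hist1h4b measured 2.42 and 1.25 in wild-type mice and 3.52 and 1.47 in ApcMin/+ mice, and the groups overlapped. Its log2 difference was 0.27 ± 0.62 (SE) and turned to -0.43 when libraries were centred. Hist1h4a measured 3.14 and 3.05 in wild-type mice and 10.1 and 2.72 in ApcMin/+ mice, and Hist1h4f 2.09 and 1.54 in wild-type mice and 6.63 and 1.61 in ApcMin/+ mice. Their log2 differences of 0.65 and 0.67 also turned to -0.19 and -0.10 when centred. The differences of Hist1h4b, Hist1h4a and Hist1h4f were -0.17, -0.14 and -0.10 without ApcMin/+ replicate 1.

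By class, the median log2 difference of tested genes was 0.88 for H1 (4 genes), 1.08 for H2A (12), 1.10 for H2B (13), 1.05 for H3 (10) and 1.09 for H4 (11). With centring, the H1 genes stood at 0.03 and the core classes at 0.20 to 0.37. All 10 tested H3 genes were above 0 after centring, as were 10 of 12 H2A, 12 of 13 H2B, 8 of 11 H4 and 2 of 4 H1 genes. By cluster, the medians were 1.17 and 1.33 in the first and second Hist1 clusters, 0.96 in the third and 1.07 in Hist2. After centring they were 0.44, 0.61, 0.11 and 0.29. Without ApcMin/+ replicate 1, and without centring, the medians were 0.08 for H1, 0.23 for H2A, 0.19 for H2B, 0.28 for H3 and 0.19 for H4, and in the same 4 clusters 0.43, 0.47, 0.07 and 0.19. Differences between classes or clusters were not tested.

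Signal was also averaged over whole clusters, with the sequence between the genes included. The mean over the first Hist1 cluster was 0.400 and 0.461 in wild-type mice and 1.48 and 0.554 in ApcMin/+ mice (log2 ratio 1.24). In the second it was 0.931, 1.12, 5.38 and 1.32 (1.71) and in the third 0.641, 0.717, 1.85 and 0.724 (0.92), in wild-type replicates 1 and 2 and ApcMin/+ replicates 1 and 2. The Hist2 cluster measured 0.974, 1.03, 3.72 and 1.16 (1.28), Hist3 0.788, 1.30, 4.42 and 1.62 (1.54), and Hist4 0.717, 1.37, 5.28 and 1.43 (1.68). Both ApcMin/+ values lay above both wild-type values in all 6 clusters, although in the third Hist1 cluster ApcMin/+ replicate 2 (0.724) was close to wild-type replicate 2 (0.717). In the 100 kb on either side of each cluster the same held in 3 of 6 (50%), at the first, the second and the third Hist1 cluster. These flanks measured 0.237, 0.377, 0.410 and 0.390 at the first Hist1 cluster and 0.659, 0.534, 1.21 and 0.652 at Hist2, in wild-type replicates 1 and 2 and ApcMin/+ replicates 1 and 2. The exact permutation p (two-sided) was 0.333 in each, the smallest that this design allows, and 0.333 after adjustment over the 6. Without ApcMin/+ replicate 1 the log2 ratios were 0.36, 0.36, 0.09, 0.21, 0.64 and 0.45 in the same order.

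The share of a cluster's signal that lay at the histone 5′ ends was highest in ApcMin/+ replicate 1 in 4 of 6 clusters, the first and the third Hist1 cluster, Hist2 and Hist3. The merged windows made up 20.3% of the first Hist1 cluster and held 47.5%, 44.5%, 72.2% and 54.1% of its signal in wild-type replicates 1 and 2 and ApcMin/+ replicates 1 and 2. In the third they made up 11.9% and held 36.3%, 32.4%, 55.3% and 36.5%. In the second Hist1 cluster the highest share was in ApcMin/+ replicate 2 (72.1%, 83.3%, 90.9% and 93.7% in the same order), and at Hist4 in wild-type replicate 1 (100%, against 81.6% to 93.7% in the others). Outside these windows, the mean of the first Hist1 cluster was 0.264, 0.321, 0.517 and 0.319, near the level away from 5′ ends in 3 libraries. In the third it was 0.463, 0.550, 0.935 and 0.522, above that level in all 4 libraries. That sequence includes the marked coding sequences of Hist1h1d and Hist1h2be, whose windows lie at distal 5′ ends. It also includes the 5′ ends of Hfe and Slc17a4, with means of 2.87 and 3.66.

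**Figure D5:**
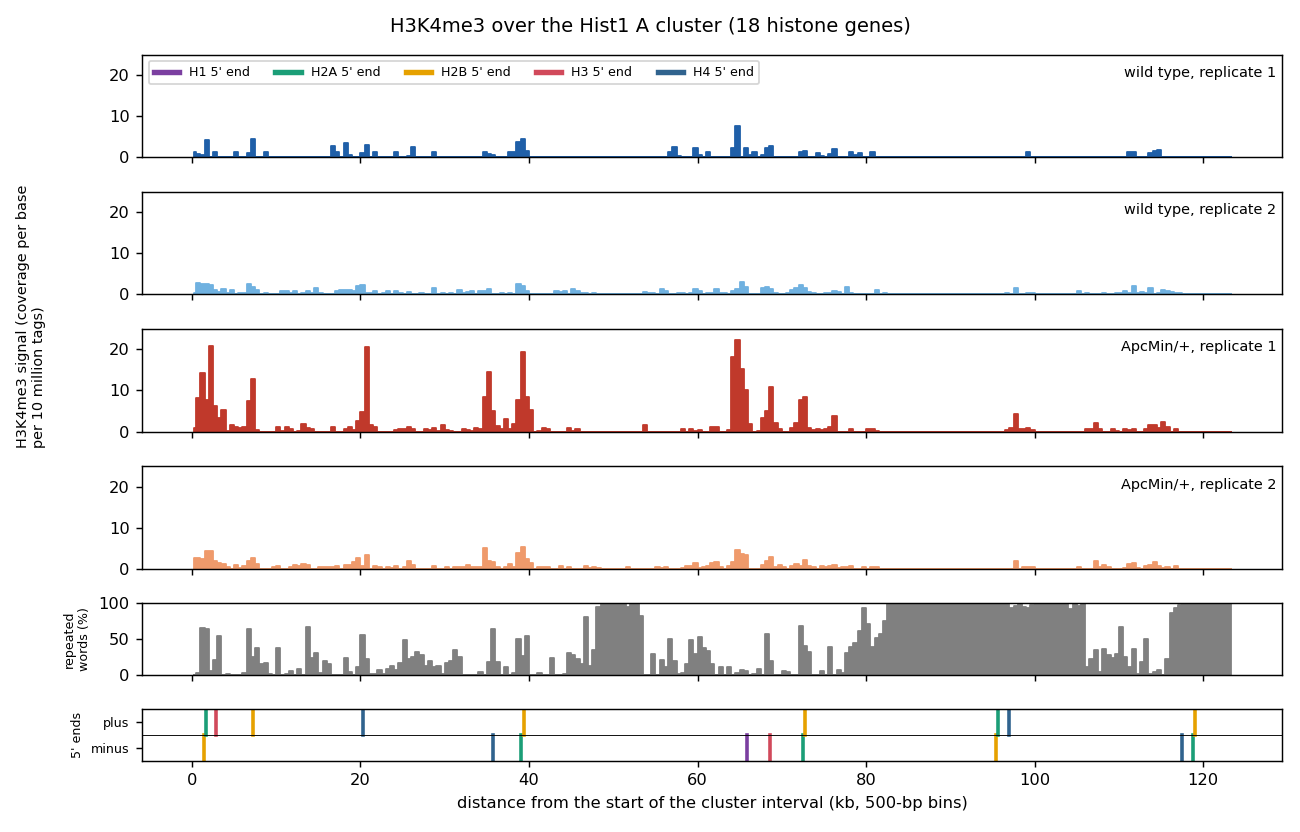
Mean signal (coverage per base, scaled to 10000000 tags) in 500-bp steps along the first Hist1 cluster (Hist1 A, distance from its start in kb) in each library, above the share of repeated 25-base words (%) and the histone 5′ ends by strand, coloured by class. Peaks stand near the 5′ ends in the left part of the cluster, most clearly in ApcMin/+ replicate 1, and are low or absent at the 6 genes on the right, where the repeated share is near 100%.

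The clusters also contain 8 other protein-coding genes. In the third Hist1 cluster, the solute carrier genes Slc17a1, Slc17a2 and Slc17a3 and the gene Trim38 had means of 0.27 to 0.44, whereas Hfe, the haemochromatosis gene, and Slc17a4, an intestinal anion transporter, reached 2.87 and 3.66. The highest was Bola1 at the edge of the Hist2 cluster, at 3.11 and 2.99 in wild-type mice and 17.9 and 3.64 in ApcMin/+ mice. The 5′ ends of Hfe and Slc17a4 lie 12400 and 19147 bp from the nearest histone gene's. Bola1 and Trim17 start 156 and 0 bp from Hist2h2ab and Hist3h2a, so that their values cannot be told apart from those of the histone genes.

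Genes that supply or handle histones were compared as a background, with lists chosen by function. Of 11 replication-independent histone variant genes 7 were tested and 0 passed. Their median log2 difference was 0.76, and 1 of 7 was above 0 after centring (median -0.13), against 42 of 50 clustered genes, a difference that was not tested. With centring and without wild-type replicate 1, 24 of 50 clustered genes were above 0, and the variants were not counted in that setting. H1f0, the linker variant of resting cells, measured 11.1, 4.30, 22.4 and 6.94, and H2afz, which encodes H2A.Z, 5.93, 3.44, 14.1 and 4.02 in wild-type replicates 1 and 2 and ApcMin/+ replicates 1 and 2. Cenpa, the centromeric H3 variant, was the variant above 0 after centring (0.46). The median of the variants was -0.01 without ApcMin/+ replicate 1 and without centring.

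Of the 4 genes that drive histone gene transcription (Npat, Casp8ap2, Hinfp and Pou2f1), all were tested and 0 passed, with a median of 0.86, and -0.01 after centring. Npat, the coactivator that gathers at histone loci, measured 5.84, 4.80, 17.8 and 7.60 in wild-type replicates 1 and 2 and ApcMin/+ replicates 1 and 2. Of 9 genes for histone pre-mRNA processing, 7 were tested and 0 passed (median 0.89, 0.06 centred). Slbp measured 9.04, 5.14, 26.7 and 6.36 in the same order. The 6 histone chaperone genes (median 0.68, -0.04 centred) and 16 tested proliferation genes (0.82, -0.03 centred) likewise had none past the test. Of 15 enterocyte or epithelial markers 13 reached the mean of 2, and of 6 crypt markers 3 did, while 0 of 7 immune, 0 of 7 mesenchymal or vessel and 0 of 7 genes silent in the gut did. The enterocyte and crypt markers had medians of 0.85 and 1.01 (-0.03 and 0.16 centred), with 0 past the test. Without ApcMin/+ replicate 1, and without centring, the medians were 0.25 for transcription, 0.34 for processing, 0.33 for chaperones, 0.36 for proliferation, 0.06 for enterocyte and 0.11 for crypt genes.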

How the data were processed

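H3K4me3 signal was taken from 4 libraries (2 wild-type, 2 ApcMin/+), deposited separately and with no control subtracted. The authors trimmed reads (to 21 or 25 bases, as the sources differ), aligned them to mm10 with Bowtie2, removed those with a mapping quality under 10 and duplicates (Picard), kept fragments of 150 to 500 bp, and wrote coverage with HOMER. The deposited values are signal (coverage per base) scaled to 10000000 tags, from 1430000 to 5470000 tags per library. The other libraries of the series were not analysed here.

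Windows of 1000 bp on each side of GENCODE M21 5′ ends were averaged, and overlapping windows were merged for counts of windows. Promoters with a mean of at least 2 were tested with limma 3.58.1 (R 4.3.3) on log2(signal + 1), a pseudocount of 1, with Benjamini-Hochberg adjustment, by genotype alone. Single values were compared with an exact permutation test. A 25-base word was called repeated when it, or its reverse complement, occurred more than once in the genome. The limma step was tested on simulated data with an SD of 0.15 (log2) between libraries and no shift of a whole library. That setting differs from these libraries, so the test does not measure power here. The text names every linker histone, the 2 highest and 2 lowest members of each core class, the 3 largest and 3 smallest differences, members outside Hist1 and genes of the lists. A few other members were named after their values were seen. The histone genes and lists were chosen with earlier results of these data known. Alternatives (scaling, window, pseudocount, filter, replicates left out, replicate block) are given in the closing section. Figures were drawn with matplotlib 3.10.9.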

Additional observations from a re-analysis of the deposited data

How the results depend on the processing

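The log2 ratio over the histone windows (1.59) moved to 0.27 when libraries were centred on their median promoter and to 0.33 with quantile normalization. With 1 library left out it ran from 0.30 to 2.25, and with centring as well the ratio was 0.016 or 0.57 once 1 wild-type library was dropped (replicate 1 or 2) and 0.11 or 0.40 once 1 ApcMin/+ library was (replicate 1 or 2). The count of 20 windows without overlap became 10 when centred, 7 after quantile normalization and 9 with 2000 bp on each side. Of all merged windows, 29%, 31.2% and 40.8% did not overlap in these settings, and 39.2% in the setting reported. With 1 library left out the count was 20 to 28 (14 to 25 with centring as well). The share of all merged windows was not taken there. Groups of 2 and 1 libraries separate more easily than 2 and 2, so no conclusion is drawn from these counts. The count of genes past the adjusted test ran from 0 to 49 with 1 library left out, and 49 was reached only without ApcMin/+ replicate 2, without centring. It was 0 under every other setting run. The median difference over the named genes (1.06) ran from 0.20 to 1.96 with 1 library left out, and with centring as well was 0.079 without wild-type replicate 1 and 0.069 without ApcMin/+ replicate 1. Split at gaps of 50 kb, the third Hist1 cluster gave -1.26 for Hist1h2ba and Hist1h2aa alone. With centring, 5 of the named genes fell below 0, Hist1h4f (-0.10), Hist1h1e (-0.078), Hist1h4b (-0.43), Hist1h4a (-0.19) and Hist1h1a (-0.11). With quantile normalization they stood at -0.16, -0.17, -0.38, -0.27 and -0.017. With 1 library left out they ran from -0.10 to 1.44, -0.069 to 1.59, -0.17 to 0.70, -0.14 to 1.44 and -0.048 to 1.41, with the lowest value in each case without ApcMin/+ replicate 1, and Hist1h4b was also at -0.036 without wild-type replicate 2. Why these values moved was not tested. Start-codon windows, the removal of windows over 50% repeated, and centring with 1 library left out were added after seeing the data.

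With the replicate number as a block, 0 histone genes passed the adjusted test and 7 of 50 were higher at an unadjusted p under 0.05, against 312 of all 9931 promoters (3.14%), and the median difference of the named genes stayed at 1.06. Libraries with the same number shared only that number: their deviations correlated at 0.196 over tested promoters and at -0.04 over tested histone genes, from 2 pairs. Over all 9931 promoters the block gave 1 call, lower in ApcMin/+ mice, against 0 without it, and it changed no call of a histone gene. Depth limits single windows of wild-type replicate 1 most, and windows at 0 in repeated sequence cannot be read as lacking the mark.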
